A study of Mus musculus with 12 samples.

Results

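The 10 genes described here set the pace of the G1 phase of the cell cycle: the D-type cyclins Ccnd1, Ccnd2 and Ccnd3, the E-type cyclins Ccne1 and Ccne2, the INK4 inhibitors Cdkn2a, Cdkn2b and Cdkn2c, and the CIP/KIP inhibitors Cdkn1a and Cdkn1b. The rule takes them by symbol, as known members of these 4 families, and the set was proposed with earlier results of these data known. All 10 were found among the 40384 Ensembl gene IDs of the table, and all 10 passed the filter on low values that left 17114 genes for testing (3 or more of the 12 libraries at or above 1 FPKM). Cdkn2c was under 1 FPKM in every iPSC library and passed through the other groups. FPKM is the number of sequenced fragments scaled to the length of the gene and to the depth of the library, so levels can be compared between genes.

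Polyadenylated RNA of mouse cells was sequenced in 12 libraries, 3 in each of 4 groups. The iPSC group holds induced pluripotent stem cells. The D4_DUX group holds 4F2A cells at day 4 of reprogramming that are labelled with overexpression of DUX, for 48 h, and the D4 group holds 4F2A cells at the same day with the control of the overexpression (OE-NC). The MEF group holds 4F2A embryonic fibroblasts with no treatment label, and the fibroblasts are described as coming from male, homozygous, mid-gestation embryos. 4F2A cells are known to carry transgenes for Oct4, Sox2, Klf4 and Myc that doxycycline switches on, and one culture text with doxycycline at 2 μg/mL and LIF at 1000 U/mL is given for every sample, fibroblasts included. The labels say neither whether the libraries of a group came from separate cultures, so p-values measure only the spread between these libraries, nor from which fibroblasts the iPSC came.

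Depth, worked out from the steps between low values and not given by the authors' table, was 22530000 to 28130000 counted fragments per library. The fragment numbers and floors given here rest on that estimate. The annotated Dux gene, Duxf3, was at or below 0.0247 FPKM in all 12 libraries, under the floor of 3 fragments (0.0395 to 0.0494 FPKM), and at 0 fragments in the libraries labelled D4_DUX, so overexpression was not seen at the annotated gene, and directions are those of the libraries so labelled. Summed levels of 10 pluripotency markers were 1397 to 1553 FPKM in iPSC, 0.571 to 0.749 in D4_DUX, 0.691 to 0.759 in D4 and 0.727 to 0.912 in MEF. Summed levels of 10 fibroblast markers were 820 to 1048 FPKM in iPSC, 2479 to 2546 in D4_DUX, 3244 to 3394 in D4 and 6309 to 6521 in MEF. Messages of these marker genes were thus also counted in the iPSC libraries, and which cells they came from was not tested. Summed levels of 16 macrophage markers were 141 to 186 FPKM in iPSC, 47.3 to 49.6 in D4_DUX, 193 to 230 in D4 and 1636 to 1683 in MEF, with none of the 16 listed at 0 in every library of a group. Summed levels of 6 epithelial markers were 152 to 168 FPKM in iPSC, 27.9 to 29.7 in D4_DUX, 10.6 to 11.7 in D4 and 5.27 to 5.60 in MEF. Summed levels of 5 endothelial markers were 27.2 to 27.8 FPKM in iPSC, 20.2 to 22.6 in D4_DUX, 14.0 to 14.5 in D4 and 0.703 to 0.757 in MEF. Of these 5, 4 had a mean under 1 FPKM in D4_DUX and in D4, 3 in iPSC and all 5 in MEF. The receptor gene Tek made up most of the sum in D4_DUX (mean 21.3 FPKM) and in D4. At day 4 this sum therefore says little beyond the level of Tek. Of the defining markers, Dppa5a was at 0 in D4_DUX, Emcn in D4 and Lin28a in MEF. In bulk RNA, fewer cells of a type and less RNA per cell cannot be told apart, and the part of these other cells in the results below was not tested.

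D-type cyclins are made in response to growth signals and bind Cdk4 and Cdk6, whose kinase activity phosphorylates the retinoblastoma protein and frees E2F factors. E2F factors switch on Ccne1 and Ccne2, whose proteins bind Cdk2 and carry the cell into S phase. INK4 proteins bind Cdk4 and Cdk6 and keep D-type cyclins off them, while the CIP/KIP proteins p21 (Cdkn1a) and p27 (Cdkn1b) bind cyclin-CDK complexes and inhibit Cdk2. Cdkn2a makes 2 unrelated proteins from different first exons, the INK4 protein p16 and Arf, which protects p53. The locus of Cdkn2a and Cdkn2b is known as a barrier to the reprogramming of fibroblasts, and mouse pluripotent cells are known for a short G1 phase.

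Cdkn2a and Cdkn2b lie next to each other on the minus strand of chromosome 4, 11645 bases apart, and they are the INK4 members called in opposite directions between the libraries labelled D4_DUX and D4. The sequences before their starts are shown for that reason, with that of Ccne1, which was called higher in iPSC than in each of the other groups. They are the 250 bases before each RefSeq start in GRCm38.p6, written 5′ to 3′ on the gene's strand, and the starts of Cdkn2a lie 12427 bases apart. Capitals mark matches on either strand to any of the motifs searched. Known motifs of E2F factors were searched as TTTCGCGC and TTTGGCGC, and the cyclic AMP response element (CRE) was searched as TGACGTCA. The motif of Sp factors, named GC box, was searched as GGGCGG, that of Myc factors, named E-box, was searched as CACGTG, and that of AP-1 factors was searched as TGACTCA. Of core promoter motifs, the TATA box was searched as TATAAA and the CCAAT box by the letters of its name. No matches in these stretches overlapped.
Cdkn2a before the Arf first exon, chr4:89294620-89294869, minus strand: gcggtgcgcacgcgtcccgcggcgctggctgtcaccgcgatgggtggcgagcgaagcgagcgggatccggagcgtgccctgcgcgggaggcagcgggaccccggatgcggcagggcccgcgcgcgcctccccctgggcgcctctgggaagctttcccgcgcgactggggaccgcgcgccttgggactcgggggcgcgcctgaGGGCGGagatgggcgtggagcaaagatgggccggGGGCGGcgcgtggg
Cdkn2a before the p16 first exon, chr4:89282193-89282442, minus strand: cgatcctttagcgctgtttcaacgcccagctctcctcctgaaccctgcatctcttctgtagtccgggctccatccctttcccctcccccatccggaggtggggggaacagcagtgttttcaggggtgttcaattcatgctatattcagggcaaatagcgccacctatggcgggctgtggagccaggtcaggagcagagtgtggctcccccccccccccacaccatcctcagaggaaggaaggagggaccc
Cdkn2b, chr4:89311033-89311282, minus strand: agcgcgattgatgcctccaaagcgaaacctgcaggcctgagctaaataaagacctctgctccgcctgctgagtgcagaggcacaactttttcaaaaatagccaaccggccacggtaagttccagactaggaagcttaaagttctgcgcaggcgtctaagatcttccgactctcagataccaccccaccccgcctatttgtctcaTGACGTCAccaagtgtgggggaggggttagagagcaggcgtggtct
Ccne1, chr7:38107491-38107740, minus strand: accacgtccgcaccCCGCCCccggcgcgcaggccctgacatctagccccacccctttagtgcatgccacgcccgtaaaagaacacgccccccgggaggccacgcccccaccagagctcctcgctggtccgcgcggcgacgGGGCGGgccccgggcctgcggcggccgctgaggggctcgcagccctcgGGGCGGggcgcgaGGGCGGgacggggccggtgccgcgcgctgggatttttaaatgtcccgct

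The stretch before the Arf exon held 2 GC boxes, the stretch before the p16 exon held no match to any motif searched, and the stretch of Cdkn2b held 1 CRE, at 46 to 39 bases before the start. Ccne1 held 4 GC boxes. Of 32851 promoter stretches of this length, 32.7% held a GC box, 33.8% a CCAAT box, 12.4% a TATA box, 6.02% an E-box, 4.46% an AP-1 motif, 1.55% a CRE, and 0.256% and 0.417% the E2F motifs TTTCGCGC and TTTGGCGC. The table of sequences gave 11 starts for 7 of the 10 members, and Ccnd1, Ccnd2 and Ccne2 were not among them. The E2F motifs TTTCGCGC and TTTGGCGC, the E-box, the AP-1 motif and the TATA box had no match in any of the 11 stretches. This says only that these letters are not in these windows. Other forms of the E2F motif were not searched, so their absence is not shown. Unmarked letters, those before the Arf exon included, can hold such forms.

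The levels of the 10 genes differed more between groups than within them. Cyclin D1 and the D-type cyclins together were highest in the libraries labelled D4_DUX, Cdkn1a was high on both arms of day 4, Ccne1 was highest in iPSC, and Cdkn2c and Cdkn1b were highest in MEF. Within a group of 3 libraries, the SD was between 0.537% and 25.1% of the mean, and the highest value was that of Cdkn2c in iPSC, at a level under 1 FPKM. Each of the 10 genes had more than 3 fragments in every library, the fewest being 38 fragments of Cdkn2c in iPSC.

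**Figure D1:**
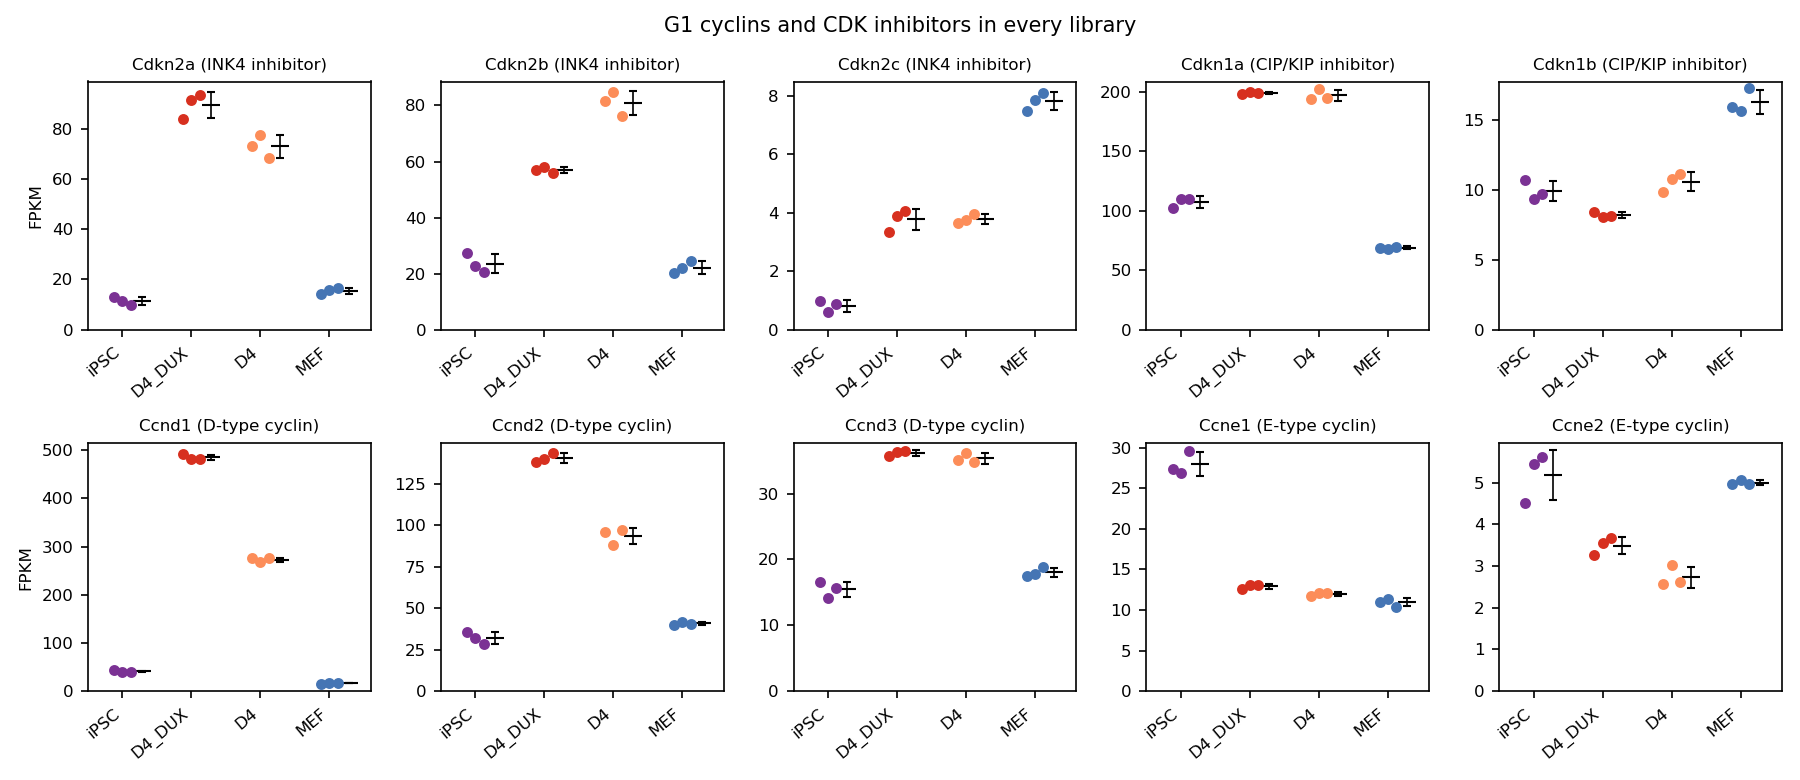
FPKM of each gene (y axis from 0) in the 4 groups, with 1 point per library and a black line and bar for the mean and SD of n = 3. Ccnd1 stood at 482 to 491 FPKM in D4_DUX against 268 to 275 in D4, while Cdkn1a stood at 198 to 199.8 FPKM in D4_DUX and 194 to 202 in D4.

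Ccnd1, the cyclin D1 gene (ENSMUSG00000070348, chromosome 7, 144929931 to 144939925, minus strand), had 43.1, 39.7 and 40.2 FPKM in iPSC, 491, 483 and 482 FPKM in the libraries labelled D4_DUX, 275, 268 and 275 FPKM in D4, and 15.7, 17.0 and 17.4 FPKM in MEF. No value of one group fell within the range of another. Between D4 and MEF the ratio of mean FPKM was 16.3, and the log2 fold change of 3.95 (SE 0.04, adjusted p = 4.33e-14) was the 34th highest of the 17114 genes tested. Between D4_DUX and D4 the ratio was 1.78, and the log2 fold change of 0.83 (SE 0.04, adjusted p = 2.36e-07) was the 138th highest. In iPSC the gene was 6.66-fold lower than in D4 and 2.45-fold higher than in MEF.

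Ccnd2, the cyclin D2 gene (ENSMUSG00000000184, chromosome 6, 127125162 to 127152193, minus strand), had 35.7, 32.2 and 28.5 FPKM in iPSC, 138, 139.9 and 144 FPKM in D4_DUX, 95.6, 87.9 and 96.8 FPKM in D4, and 39.7, 41.8 and 40.7 FPKM in MEF. The 4 groups were apart here too, and iPSC stood below MEF, unlike Ccnd1. The level was higher in D4_DUX than in D4 (log2 fold change 0.58, SE 0.07, adjusted p = 7.46e-05) and 2.29-fold higher in D4 than in MEF (log2 fold change 1.18, SE 0.07, adjusted p = 3.3e-08).

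Ccnd3, the cyclin D3 gene (ENSMUSG00000034165, chromosome 17, 47505051 to 47599691, plus strand), had 16.5, 14.2 and 15.6 FPKM in iPSC, 35.7, 36.2 and 36.5 FPKM in D4_DUX, 35.1, 36.2 and 34.7 FPKM in D4, and 17.5, 17.7 and 18.8 FPKM in MEF. The ranges of D4_DUX and D4 overlapped, and both lay above iPSC and MEF. Its log2 fold change was 0.93 between D4 and MEF (SE 0.05, adjusted p = 1.61e-08) and 0.03 between D4_DUX and D4 (SE 0.05, adjusted p = 0.666). With quantile normalization the difference between D4_DUX and D4 was of negative sign, -0.016.

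Added up, the D-type cyclins reached 88.5 ± 5.91 FPKM in iPSC, 662 ± 3.08 FPKM in D4_DUX, 402 ± 8.23 FPKM in D4 and 75.5 ± 2.19 FPKM in MEF (SD, n = 3 each). The cyclin that led the sum differed between the groups. Ccnd1 made up 46.3 ± 1.27% of it in iPSC, 73.3 ± 0.542% in D4_DUX, 68.0 ± 0.358% in D4 and 22.1 ± 0.521% in MEF, where Ccnd2 led with 54.0 ± 0.964%. Ccnd3 made up 17.4 ± 1.02% in iPSC, 5.46 ± 0.0812% in D4_DUX, 8.80 ± 0.377% in D4 and 23.9 ± 0.672% in MEF.

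Some of these genes share ground with genes of the opposite strand. Gm43126, annotated as antisense within the span of Ccnd2, had 25.2 ± 3.39 FPKM in iPSC, 107 ± 3.33 in D4_DUX, 74.0 ± 4.25 in D4 and 33.1 ± 1.52 in MEF, 0.735 to 0.897 times the FPKM of Ccnd2 in every library. LTO1, on the strand opposite Ccnd1, had 7.01 ± 0.212 FPKM in iPSC, 60.5 ± 0.805 in D4_DUX, 34.1 ± 1.25 in D4 and 4.40 ± 0.0484 in MEF, in the same order as Ccnd1. AC167363.2, opposite Cdkn1a, had 22.9 ± 3.98 FPKM in iPSC, 47.3 ± 1.78 in D4_DUX, 45.8 ± 1.67 in D4 and 13.7 ± 2.29 in MEF. The library kit keeps the strand, but its use in counting was not given in the sources used here. Fragments of Ccnd1, Ccnd2 and Cdkn1a therefore cannot be told apart from those of their opposite partners. Bysl overlaps Ccnd3 and Ints8 overlaps Ccne2 in the same way, with means of 8.36 to 24.5 and 4.97 to 6.66 FPKM over the groups.

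Ccne1, the cyclin E1 gene (ENSMUSG00000002068, chromosome 7, 38097984 to 38107534, minus strand), had 27.4, 26.8 and 29.6 FPKM in iPSC, 12.6, 13.1 and 13.1 FPKM in D4_DUX, 11.7, 12.1 and 12.1 FPKM in D4, and 11.0, 11.4 and 10.4 FPKM in MEF. The iPSC libraries stood far above the other 9, which lay close together. The ratio of means was 2.55 between iPSC and MEF (log2 fold change 1.28, SE 0.04, adjusted p = 1.03e-10) and 2.33 between iPSC and D4. The log2 fold change of 0.10 between D4_DUX and D4 missed the threshold (SE 0.04, adjusted p = 0.103) and passed with only these groups in the fit (adjusted p = 0.0364). That of 0.12 between D4 and MEF (adjusted p = 0.0287) lost its call with median-ratio scaling (0.209), with quantile normalization (0.229) and without D4 replicate 2 (0.0721), D4 replicate 3 (0.0724), MEF replicate 1 (0.0526) or MEF replicate 3 (0.117).

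Ccne2, the cyclin E2 gene (ENSMUSG00000028212, chromosome 4, 11191351 to 11204779, plus strand), had 4.51, 5.45 and 5.62 FPKM in iPSC, 3.26, 3.54 and 3.67 FPKM in D4_DUX, 2.56, 3.02 and 2.61 FPKM in D4, and 4.96, 5.06 and 4.98 FPKM in MEF. It was low on both arms of day 4 and higher at both ends, where iPSC and MEF overlapped. Its log2 fold change was -0.69 between D4 and MEF (SE 0.07, adjusted p = 7.21e-06) and 0.27 between D4_DUX and D4 (SE 0.07, adjusted p = 0.0151). The call between D4_DUX and D4 ended without D4 replicate 1 (adjusted p = 0.0575) or D4_DUX replicate 3 (0.0562). The E-type cyclins summed to 33.1 ± 1.83 FPKM in iPSC, 16.4 ± 0.482 in D4_DUX, 14.7 ± 0.416 in D4 and 15.9 ± 0.544 in MEF, and the D4 libraries lay below those of D4_DUX and MEF without overlap. Ccne2 gave 21.3 ± 0.652% of it in D4_DUX, 18.5 ± 1.24% in D4 and 31.4 ± 0.866% in MEF.

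Cdkn2a, the gene of p16 and Arf (ENSMUSG00000044303, chromosome 4, 89274471 to 89294653, minus strand), had 13.0, 11.5 and 9.75 FPKM in iPSC, 83.9, 91.5 and 93.4 FPKM in D4_DUX, 73.2, 77.7 and 68.4 FPKM in D4, and 14.1, 16.0 and 16.5 FPKM in MEF. Both arms of day 4 stood far above iPSC and MEF. The table has 1 value per gene, so p16 and Arf messages are summed. The ratio of means was 4.71 between D4 and MEF (log2 fold change 2.17, SE 0.09, adjusted p = 2.73e-09). Between D4_DUX and D4 the ratio was 1.23 with no overlap (log2 fold change 0.29, SE 0.09, adjusted p = 0.0296). That call ended with no filter on low values (adjusted p = 0.0805) and without D4 replicate 1 (0.0678), D4 replicate 3 (0.0994), D4_DUX replicate 2 (0.0809) or D4_DUX replicate 3 (0.095).

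Cdkn2b, the gene of the INK4 protein p15, which TGF-beta is known to induce (ENSMUSG00000073802, chromosome 4, 89306299 to 89311039, minus strand), had 27.4, 22.6 and 20.6 FPKM in iPSC, 56.8, 58.0 and 55.9 FPKM in D4_DUX, 81.6, 84.9 and 76.2 FPKM in D4, and 20.1, 21.9 and 24.4 FPKM in MEF. The D4 libraries were the highest, with no overlap with D4_DUX, while iPSC and MEF overlapped. The ratio of means was 3.65 between D4 and MEF (log2 fold change 1.83, SE 0.09, adjusted p = 1.13e-08). It was 1.42-fold lower in D4_DUX than in D4 (log2 fold change -0.50, SE 0.09, adjusted p = 0.00166), where its neighbour Cdkn2a was higher. Within a library, Cdkn2a over Cdkn2b was 0.472 to 0.507 in iPSC, 1.48 to 1.67 in D4_DUX, 0.897 to 0.915 in D4 and 0.675 to 0.729 in MEF, a ratio set up after these values were seen and given without a test. Mtap, the next coding gene on the Cdkn2a side and an enzyme of methionine salvage, was called higher in D4 than in MEF (26.5 ± 1.03 FPKM in D4 and 17.4 ± 0.795 FPKM in MEF, log2 fold change 0.58, adjusted p = 1.82e-07) and was not called between D4_DUX and D4 (log2 fold change 0.07).

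Cdkn2c, the gene of the INK4 protein p18 (ENSMUSG00000028551, chromosome 4, 109660876 to 109667189, minus strand), had 0.983, 0.586 and 0.865 FPKM in iPSC, 3.35, 3.88 and 4.06 FPKM in D4_DUX, 3.64, 3.74 and 3.95 FPKM in D4, and 7.48, 7.85 and 8.08 FPKM in MEF. Unlike Cdkn2a and Cdkn2b it had its highest level in MEF, and D4_DUX and D4 overlapped. It was 2.07-fold lower in D4 than in MEF (log2 fold change -0.88, SE 0.08, adjusted p = 2.32e-06). In iPSC it was 9.61-fold lower than in MEF (log2 fold change -2.29, SE 0.08, adjusted p = 1.68e-10). With iPSC under 1 FPKM this value depended on the added 1, and it was -3.14 with a pseudocount of 0.1 and -2.88 when rescaled to TPM. Its log2 fold change between D4_DUX and D4 was -0.01 (SE 0.08, adjusted p = 0.98), of positive sign without D4_DUX replicate 1 (0.058) or D4 replicate 3 (0.021) and, at 0.0017, when rescaled to TPM.

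The sum of the 3 INK4 members was 35.8 ± 5.15 FPKM in iPSC, 150 ± 5.38 in D4_DUX, 158 ± 8.89 in D4 and 45.5 ± 3.67 in MEF. Its range in D4_DUX, 144 to 153 FPKM, overlapped that in D4, 149 to 166 FPKM, while Cdkn2a was higher and Cdkn2b lower in D4_DUX. D-type cyclins over these 3 INK4 genes was 2.49 ± 0.197 in iPSC, 4.41 ± 0.179 in D4_DUX, 2.55 ± 0.190 in D4 and 1.66 ± 0.0908 in MEF. Cdkn2d, an INK4 gene outside the members, is in neither the sum nor the ratio. It had 5.26 FPKM in iPSC, 11.0 in D4_DUX, 14.9 in D4 and 18.6 in MEF. The Cdkn2a part of both includes Arf messages. The ratio compares messages, not proteins.

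**Figure D2:**
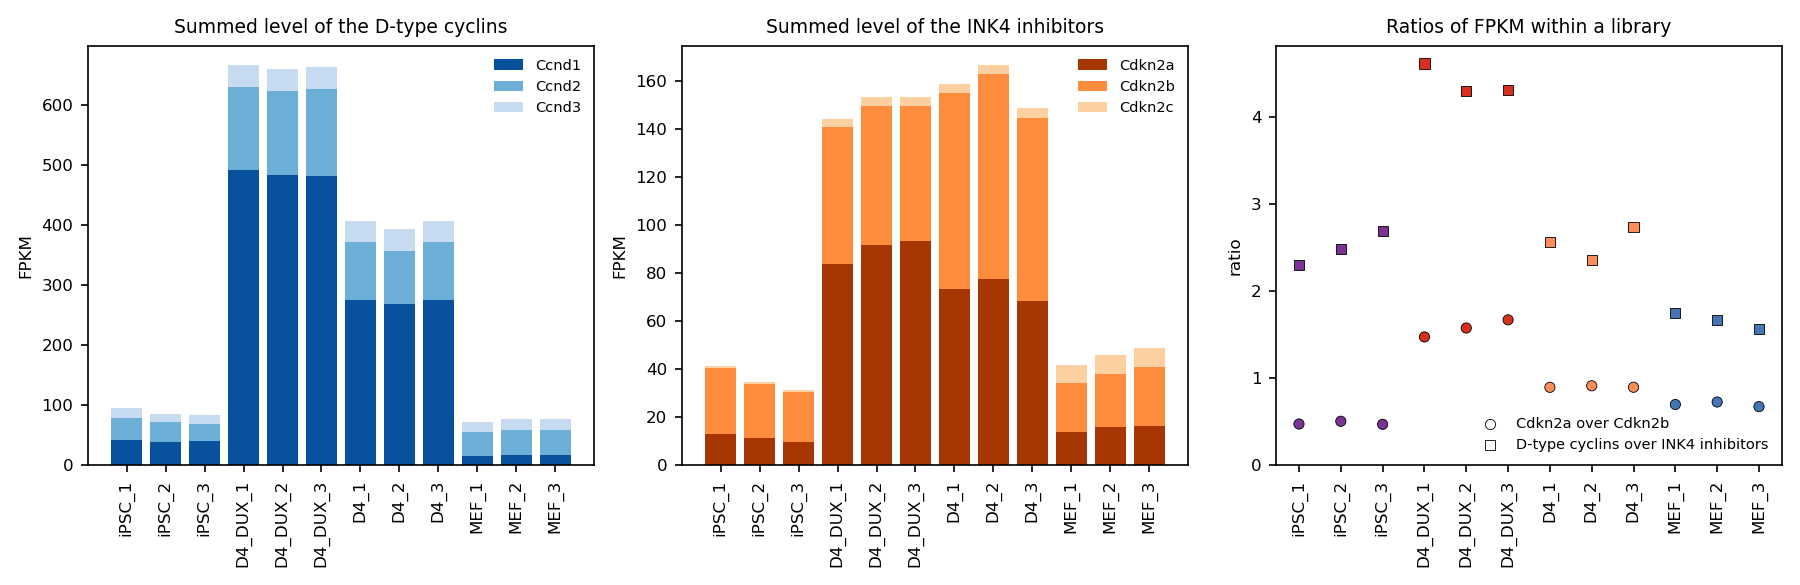
Summed FPKM of the D-type cyclins and of the INK4 inhibitors Cdkn2a, Cdkn2b and Cdkn2c in each library, stacked by gene, and ratios of FPKM within a library (circles, Cdkn2a over Cdkn2b, and squares, D-type cyclins over these INK4 inhibitors, point colours are the groups). The D-type sum was 659 to 665 FPKM in D4_DUX and 392 to 407 FPKM in D4, while the INK4 sums of these groups overlapped.

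Cdkn1a, the gene of p21 and a target of p53 (ENSMUSG00000023067, chromosome 17, 29090976 to 29100727, plus strand), had 102, 110.1 and 110.2 FPKM in iPSC, 198, 199.8 and 199 FPKM in D4_DUX, 194, 202 and 195 FPKM in D4, and 68.9, 67.6 and 69.9 FPKM in MEF. The arms of day 4 overlapped and stood above iPSC, which stood above MEF. Cdkn1a was 2.86-fold higher in D4 than in MEF (log2 fold change 1.50, SE 0.04, adjusted p = 2.2e-11). Its log2 fold change between D4_DUX and D4 was 0.01 (SE 0.04, adjusted p = 0.81), of negative sign, -0.0087, with median-ratio scaling. Mdm2, the ubiquitin ligase of p53 and itself a p53 target, was 56.6 ± 0.810 FPKM in D4 and 22.1 ± 0.0691 FPKM in MEF (log2 fold change 1.32, adjusted p = 4.14e-09). Trp53, the p53 gene, was not called between D4 and MEF (-0.03, adjusted p = 0.578). Between iPSC and D4, Mdm2 was higher in iPSC (0.74, adjusted p = 2.06e-07) and Cdkn1a lower (-0.87, adjusted p = 4.52e-10). The part of p53 in these levels was not tested.

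Cdkn1b, the gene of p27 (ENSMUSG00000003031, chromosome 6, 134920401 to 134925513, plus strand), had 10.7, 9.36 and 9.70 FPKM in iPSC, 8.46, 8.06 and 8.14 FPKM in D4_DUX, 9.89, 10.8 and 11.2 FPKM in D4, and 16.0, 15.7 and 17.3 FPKM in MEF. The libraries labelled D4_DUX were the lowest, and iPSC overlapped D4. It was 1.29-fold lower in D4_DUX than in D4 (log2 fold change -0.33, SE 0.06, adjusted p = 0.00123) and 1.54-fold lower in D4 than in MEF (log2 fold change -0.58, SE 0.06, adjusted p = 4.32e-06). The sum of Cdkn1a and Cdkn1b was 117 ± 4.10 FPKM in iPSC, 207 ± 0.864 in D4_DUX, 207 ± 4.59 in D4 and 85.1 ± 1.99 in MEF, and Cdkn1a gave 91.5 ± 0.920% of it in iPSC, 96.0 ± 0.119% in D4_DUX, 94.9 ± 0.294% in D4 and 80.8 ± 0.591% in MEF. Cdkn1c, a CIP/KIP gene outside the members, is not in this sum. It had 3.97 FPKM in iPSC, 4.06 in D4_DUX, 6.43 in D4 and 13.3 in MEF.

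The order of the levels fell into a few patterns. Ccnd1 and Cdkn1a ran from D4_DUX over D4 and iPSC to MEF, and Cdkn2a, Ccnd2 and Ccnd3 from D4_DUX over D4 and MEF to iPSC. Cdkn2b ran from D4 over D4_DUX and iPSC to MEF, Cdkn2c from MEF over D4 and D4_DUX to iPSC, and Cdkn1b from MEF over D4 and iPSC to D4_DUX. Ccne1 ran from iPSC over D4_DUX and D4 to MEF, and Ccne2 from iPSC over MEF and D4_DUX to D4. Neighbours in these orders that were not apart in the fit were D4_DUX and D4 for Cdkn2c, Cdkn1a, Ccnd3 and Ccne1, iPSC and D4 for Cdkn1b (adjusted p = 0.183), and iPSC and MEF for Cdkn2b (adjusted p = 0.442) and Ccne2 (adjusted p = 0.623).

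The libraries labelled D4_DUX were set against D4, the question being which of these genes differed with the DUX label at day 4. Of the 10 genes, 4 were called higher (Ccnd1, Ccnd2, Cdkn2a and Ccne2) and 2 lower (Cdkn2b and Cdkn1b) in limma's test (Benjamini-Hochberg over the 17114 genes, threshold 0.05). Of all genes tested, 20.1% were called higher and 15.4% lower, or 35.4% in either direction. Values of the groups did not overlap for 7 of the 10 genes, where this held for 50.5% of all genes tested. The median log2 fold change was 0.07 over the 10 genes and 0.02 over all genes tested. All 16 macrophage markers were called lower in D4_DUX beside these changes, with a median log2 fold change of -1.24, and 6 of 10 fibroblast markers were called lower and 0 higher. Of 6 epithelial markers 5 were called higher and 0 lower (median 0.84), and of 2 endothelial markers tested 1 was called higher. The part of these markers' cells in the changes was not tested.

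**Figure D3:**
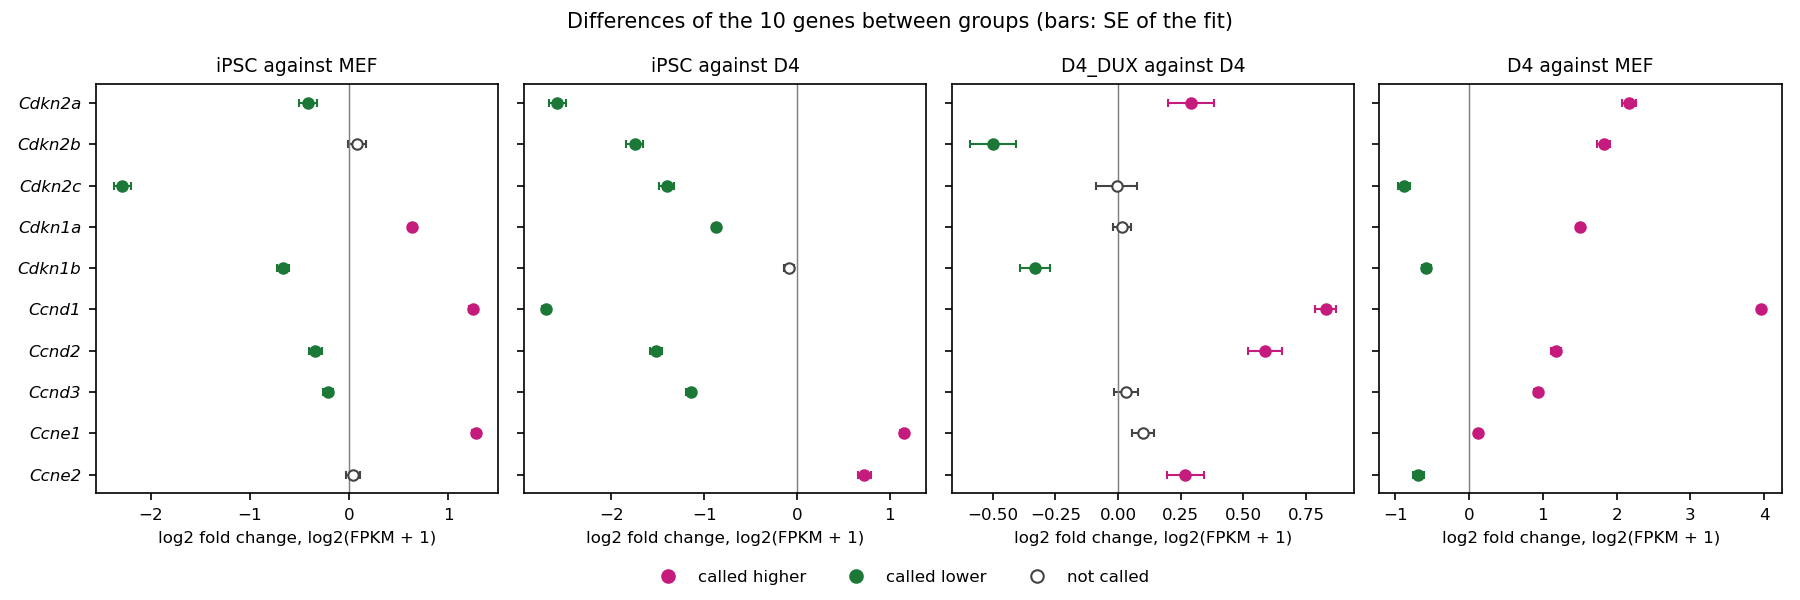
Log2 fold change on log2(FPKM + 1) of each gene (rows) in the 4 comparisons (panels, with an x axis of their own each), with the SE of the fit as bars, filled where called. In D4_DUX against D4, Ccnd1 (0.83) and Ccnd2 (0.58) lay to the right and Cdkn2b (-0.50) and Cdkn1b (-0.33) to the left.

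The kinases that D-type cyclins bind were also called higher in the libraries labelled D4_DUX. Of 8 listed catalytic partners and activators, 4 were called higher and 1 lower, with a median log2 fold change of 0.15. Over all genes tested these shares were 20.1% and 15.4%. Cdk6 was at 13.2 ± 0.237 FPKM in D4_DUX and 10.1 ± 0.278 FPKM in D4 (log2 fold change 0.35, adjusted p = 0.000163), and Cdk4 at 60.3 ± 0.908 FPKM in D4_DUX and 52.6 ± 2.40 FPKM in D4 (0.19, adjusted p = 0.00342). Cdc37, a co-chaperone of kinases that include Cdk4, had 0.17 (adjusted p = 0.00331). The 3 other CDK inhibitors listed were all called lower: Cdkn1c, the gene of p57, was at 4.06 ± 0.199 FPKM in D4_DUX and 6.43 ± 0.663 FPKM in D4 (-0.55, adjusted p = 0.000105), Cdkn2d, the gene of the INK4 protein p19, at 11.0 ± 0.345 FPKM in D4_DUX and 14.9 ± 0.918 FPKM in D4 (-0.41), and Cdkn3, a phosphatase of CDKs, at 1.83 ± 0.168 FPKM in D4_DUX and 2.65 ± 0.304 FPKM in D4 (-0.37).

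Of 18 S phase targets of E2F, 2 were called higher and 4 lower in D4_DUX (median log2 fold change -0.04), a share near the 35.4% called over all genes tested. Of 10 mitotic cyclins and proliferation markers 0 were called higher and 8 lower (median -0.20), where 15.4% of all genes tested were called lower. Ccna2, the cyclin of S phase and G2, was at 11.4 ± 0.237 FPKM in D4_DUX and 13.7 ± 0.378 FPKM in D4 (-0.25, adjusted p = 0.000323), Rrm2, a subunit of ribonucleotide reductase, at 34.2 ± 1.75 FPKM in D4_DUX and 42.1 ± 1.32 FPKM in D4 (-0.29), and the helicase subunit Mcm2 at 8.47 ± 0.299 FPKM in D4_DUX and 7.29 ± 0.294 FPKM in D4 (0.19). Cdc20, an activator of mitotic exit, had -0.29 (adjusted p = 0.00017), Top2a -0.26 and Aurkb -0.32. Of 13 pocket protein and E2F genes 2 were called higher and 2 lower: E2f7 (0.16), Tfdp1 (0.15) and E2f1 (-0.20), with Rb1 as the other lower one. Of 16 genes for the turnover of G1 cyclins and inhibitors 2 were called higher and 0 lower, a smaller share than the 35.4% called over all genes tested. They were Skp2, which marks p27 for degradation (2.49 ± 0.0134 FPKM in D4_DUX and 2.15 ± 0.0522 FPKM in D4, 0.15, adjusted p = 0.0254), and its partner Skp1a (0.16, adjusted p = 0.0231). For both lists, the shares over all genes tested were 20.1% called higher and 15.4% lower.

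Of 14 listed regulators of Cdkn2a, Cdkn2b and Cdkn1a, 3 were called higher and 2 lower in D4_DUX, a share near the 35.4% called over all genes tested. The Polycomb genes Bmi1, known as a repressor of Cdkn2a, and Cbx8 were at 5.53 ± 0.515 FPKM in D4_DUX and 4.37 ± 0.0559 FPKM in D4 (0.28, adjusted p = 0.00567) and at 2.98 ± 0.123 FPKM in D4_DUX and 2.28 ± 0.112 FPKM in D4 (0.28, adjusted p = 0.00509). Trp53, the p53 gene, was at 34.4 ± 0.131 FPKM in D4_DUX and 27.4 ± 1.61 FPKM in D4 (0.32, adjusted p = 0.00017), beside the log2 fold change of 0.01 of its target Cdkn1a.

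Setting D4 against MEF compares day 4 of reprogramming with the fibroblasts. All 10 genes were called, 7 higher (Ccnd1, Ccnd2, Ccnd3, Ccne1, Cdkn1a, Cdkn2a and Cdkn2b) and 3 lower (Cdkn1b, Cdkn2c and Ccne2), where 34.2% of all genes tested were called higher and 27.6% lower, or 61.8% in either direction. No gene of the 10 had overlapping groups, where 66.5% of all genes tested had none. The median log2 fold change was 1.06 over the 10 genes and 0.03 over all genes tested. After Ccnd1, the largest changes were those of the inhibitors Cdkn2a (2.17), Cdkn2b (1.83) and Cdkn1a (1.50), at ranks 181, 278 and 406 from the highest. All 16 macrophage markers were called lower beside them (median -2.08), as were 9 of 10 fibroblast markers, against 1 higher. Of 6 epithelial markers 3 were called higher and 0 lower (median 0.36), and of 2 endothelial markers tested 1 was called higher, with the summed levels given above.

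While D-type cyclin messages were higher, genes of S phase and mitosis were called lower in D4 than in MEF. Of 18 S phase targets of E2F 16 were called lower and 1 higher (median -0.40), and of 10 mitotic cyclins and proliferation markers all were called lower (median -0.74). Over all genes tested, 27.6% were called lower and 34.2% higher. Ccna2 was at 13.7 ± 0.378 FPKM in D4 and 22.0 ± 0.733 FPKM in MEF (-0.64, adjusted p = 2.86e-08), Cdk1, the kinase of mitosis, at 9.69 ± 0.0144 FPKM in D4 and 17.2 ± 0.177 FPKM in MEF (-0.77), and the checkpoint kinase Bub1 at 5.04 ± 0.0851 FPKM in D4 and 11.2 ± 0.509 FPKM in MEF (-1.01). The kinases went apart: Cdk6 rose (10.1 ± 0.278 FPKM in D4 and 4.39 ± 0.106 FPKM in MEF, 1.05, adjusted p = 3.38e-09), and Cdk2, the partner of the E-type cyclins, fell (4.78 ± 0.414 FPKM in D4 and 8.25 ± 0.0267 FPKM in MEF, -0.68, adjusted p = 4.12e-07), as did Cdk4 (-0.36). Cdkn1c (-0.95), Cdkn2d (-0.30) and Cdkn3 (-0.32) were called lower, unlike Cdkn1a, Cdkn2a and Cdkn2b. Rb1, the retinoblastoma gene, rose (7.79 ± 0.539 FPKM in D4 and 4.58 ± 0.404 FPKM in MEF, 0.66), and its relative Rbl1 and E2f7 fell (-0.56 and -0.59), among 13 pocket protein and E2F genes with 3 called higher and 7 lower.

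Among the turnover genes 6 of 16 were called higher and 4 lower in D4, a share near the 61.8% called over all genes tested. Fbxw7, which marks cyclin E for degradation, was at 4.50 ± 0.0320 FPKM in D4 and 2.58 ± 0.0668 FPKM in MEF (0.62, adjusted p = 1.13e-07). Among the regulators 3 of 14 were called higher and 6 lower, also near that share. Id1, known from human cells to oppose Ets factors at the p16 gene, was at 87.2 ± 3.26 FPKM in D4 and 8.97 ± 1.07 FPKM in MEF (3.15, adjusted p = 1.35e-11), and Ets2 at 9.43 ± 0.125 FPKM in D4 and 18.1 ± 0.725 FPKM in MEF (-0.87).

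**Figure D4:**
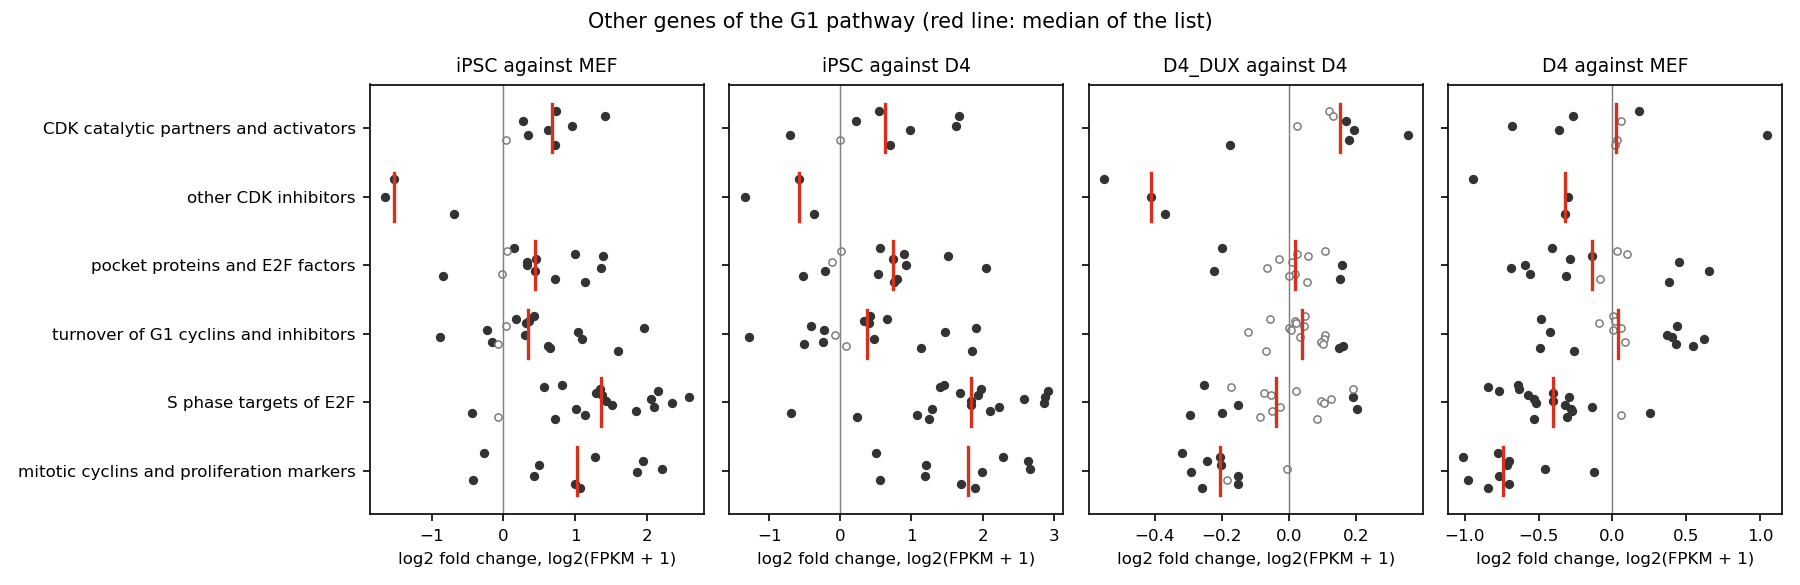
Log2 fold change on log2(FPKM + 1) of the other listed genes of the G1 pathway, 1 point per gene in 6 lists (rows) and 4 comparisons (panels, with an x axis of their own each), filled where called, with the list's median in red. The medians of S phase and mitotic genes were 1.36 and 1.03 in iPSC against MEF, 1.83 and 1.80 in iPSC against D4, -0.04 and -0.20 in D4_DUX against D4, and -0.40 and -0.74 in D4 against MEF.

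Between iPSC and D4, 2 of the 10 genes were called higher (Ccne1 and Ccne2) and 7 lower, with Cdkn1b not called. Of all genes tested 48.5% were called higher and 33.9% lower, or 82.4% in either direction, and 82.4% had groups that did not overlap, as 9 of the 10 genes did. The higher and lower calls over all genes were 6712 and 7664 with quantile normalization and 7170 and 6921 with median-ratio scaling, in place of 8293 and 5802. The median log2 fold change was -1.28 over the 10 genes and 0.16 over all genes tested. Ccnd1 had -2.71 (SE 0.04), Cdkn2a -2.58 (SE 0.09), Cdkn2b -1.75 (SE 0.09), Ccnd2 -1.52 (SE 0.07) and Cdkn2c -1.40 (SE 0.08), or -2.11 with a pseudocount of 0.1. Median-ratio scaling moved the median of all genes by -0.14 in this comparison and quantile normalization by -0.23, and with these Cdkn1b was called lower, at -0.26 and -0.30 (adjusted p = 0.000825 and 0.000315). Ccne2, at 0.73 (SE 0.07), was at 0.48 with quantile normalization. Without iPSC replicate 1 Cdkn1b was also called (-0.14, adjusted p = 0.0405).

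The E-type cyclins rose in iPSC together with the listed genes of S phase. Of 18 S phase targets of E2F, 17 were called higher than in D4 and 1 lower, Rrm1, and all 10 mitotic genes were called higher. Over all genes tested, 48.5% were called higher and 33.9% lower. Mcm5 was at 88.2 ± 5.07 FPKM in iPSC and 11.2 ± 0.425 FPKM in D4 (2.87, adjusted p = 1.49e-13), and Ccnb1, the cyclin of mitosis, at 84.2 ± 2.17 FPKM in iPSC and 12.7 ± 0.531 FPKM in D4 (2.63, adjusted p = 2.04e-13). Cdk2 was at 16.8 ± 0.297 FPKM in iPSC and 4.78 ± 0.414 FPKM in D4 (1.63), its activating phosphatase Cdc25a at 10.9 ± 0.597 FPKM in iPSC and 2.71 ± 0.107 FPKM in D4 (1.67), and E2f4 at 55.2 ± 0.876 FPKM in iPSC and 18.7 ± 0.219 FPKM in D4 (1.52). Cdkn2d, Cdkn1c and Cdkn3 were called lower (-1.34, -0.58 and -0.36). Of the 14 listed regulators 9 were called higher and 4 lower. Cbx7, a Polycomb subunit known to repress the Cdkn2a locus, was at 28.1 ± 1.10 FPKM in iPSC and 0.728 ± 0.0546 FPKM in D4 (4.07, adjusted p = 1.22e-13), the Polycomb methyltransferase Ezh2 at 23.0 ± 1.54 FPKM in iPSC and 4.09 ± 0.201 FPKM in D4 (2.24), and Id1 at 7.09 ± 0.447 FPKM in iPSC and 87.2 ± 3.26 FPKM in D4 (-3.45). The Polycomb gene Cbx8 was among the lower ones (-0.92, adjusted p = 4.12e-08).

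Against MEF, iPSC had 3 of the 10 genes called higher (Ccne1, Ccnd1 and Cdkn1a) and 5 lower (Cdkn2c, Cdkn1b, Cdkn2a, Ccnd2 and Ccnd3). Of all genes tested 51% were called higher and 31.2% lower, or 82.2% in either direction, and 82.4% had groups that did not overlap, as 8 of the 10 genes did. The higher and lower calls over all genes were 6609 and 7561 with quantile normalization and 7144 and 6736 with median-ratio scaling, in place of 8733 and 5335. The median log2 fold change was -0.09 over the 10 genes and 0.21 over all genes tested. Cdkn1a was 1.56-fold higher (log2 fold change 0.63, SE 0.04, adjusted p = 8.04e-09), beside Trp53 at 85.6 ± 3.29 FPKM in iPSC and 27.9 ± 0.221 FPKM in MEF (1.58) and Mdm2 at 95.5 ± 9.42 FPKM in iPSC and 22.1 ± 0.0691 FPKM in MEF (2.06). Cdkn2a differed by -0.42 (SE 0.09, adjusted p = 0.0012), with 9.75 to 13.0 FPKM in iPSC and 14.1 to 16.5 FPKM in MEF. Fibroblast markers summed to 820 to 1048 FPKM in iPSC and 6309 to 6521 FPKM in MEF. Which cells the marker messages in iPSC came from, and the part of such cells in the Cdkn2a level of iPSC, was not tested.

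The small differences of this comparison depended on scaling. Cdkn2b (0.08) and Ccne2 (0.04) were not called, and both changed sign with median-ratio scaling (-0.15 and -0.16), which moved the median of all genes by -0.18, and with quantile normalization (-0.16 and -0.25), which moved it by -0.27 and gave Ccne2 a call as lower (adjusted p = 0.0108). Median-ratio scaling and quantile normalization also moved Ccnd2 (-0.34) to -0.58 and -0.57, Ccnd3 (-0.21) to -0.44 and -0.46 and Cdkn2a (-0.42) to -0.64 and -0.69. Cdkn1a (0.63) was at 0.39 with median-ratio scaling. The 3 comparisons that hold D4 share its libraries, and the 2 that hold MEF or iPSC share theirs, so their values for a gene are not independent of each other.

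By a measure of likeness, the root mean square difference of log2(FPKM + 1) over the 12 libraries after each gene was centred on its own mean, the genes closest to each member were named among 7752 or 7753 genes with a mean FPKM of at least 5. Ccne1 had the closest partners, the transcription factor gene Atf1 (0.042) and Pabpc4, of the poly(A)-binding proteins (0.045). Next came Ccnd3 with the adiponectin receptor Adipor1 (0.060), Cdkn1b with Knstrn, of the mitotic spindle (0.062), Ccne2 with the kinase Mapk7 (0.081), Cdkn1a with the phosphatase Bpnt1 (0.086) and Cdkn2c with Rnf150 (0.10). Cdkn2a was closest to Rab11fip5 (0.12), Ccnd2 to the mannosidase Man2b2 (0.14) and Cdkn2b to Dglucy (0.15). Ccnd1 had the most distant nearest gene of the 10, the receptor Tek, at 0.26, followed by Ptprv (0.30). The measure was not scaled to the range of a gene over the groups, which was wider for Ccnd1 than for Ccne1. Distances of different members therefore also reflect that range. Tek is also one of the endothelial markers and made up most of their sum at day 4. Among the members themselves, Cdkn1a and Ccnd3 were the closest pair (0.31), and the neighbours Cdkn2a and Cdkn2b were 0.59 apart.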

How the data were processed

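RNA was sequenced from 12 libraries in 4 groups of 3. Per the labels' protocols, mRNA was selected by its poly(A) tail and made into stranded libraries, and per the submitters' processing notes the build was mm10. The authors deposited 1 table of FPKM values, with 1 column per library. Aligner, counter and its use of strand: not given in the sources used here. Of 40384 gene IDs, 40225 (99.6%) matched GENCODE M21, whose build GRCm38 is mm10, and took symbols and positions from it. Low values were steps of 1 fragment per library in 43.6 to 47.1% of cases and of a fraction of 0.5 in 72.4 to 74.0%, within a tolerance of 0.01 fragments, which gave the depth. Counting error only is covered by the floor of 3 fragments. No 2 columns were identical (0 of 66 pairs).

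Values were tested as log2(FPKM + 1) for the 17114 genes at or above 1 FPKM in 3 or more libraries, with limma 3.58.1 in R 4.3.3: 4 group means over 12 libraries and a variance prior that follows mean expression. Calls used a threshold of 0.05 on p-values adjusted by Benjamini-Hochberg across those genes. Fold changes are smaller than FPKM ratios for low genes because of the added 1. The fit was tested on simulated data. Members and lists were chosen with earlier results of these data known. Named genes were all members, up to 3 called genes with the smallest adjusted p per list and comparison, and the 3 most alike genes per member. Genes outside that rule (Rb1 in D4_DUX, Rrm1, and the overlapping genes) were chosen after their values were seen. Promoter sequences are from RefSeq (GRCm38.p6). Alternatives were other pseudocounts, filters, scalings, priors, a replicate block and leaving out each library.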

Additional observations from a re-analysis of the deposited data

How the results depend on the processing

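Across 22 alternatives, 852 of 880 recomputed log2 fold changes kept their direction and their side of the threshold, 13 lost a call, 4 gained one in the same direction and 11 changed sign. None of these 11 was called as reported, and 1 of them, Ccne2 in iPSC against MEF, was called lower with quantile normalization (adjusted p = 0.0108). The counts for D4_DUX against D4 stayed at 2 lower throughout and at 4 higher in 17 of 23 fits, the one reported included; leaving out a library gave 2 to 4 higher, with 2 without D4 replicate 1 and 2 without D4_DUX replicate 3, and 5 were higher with these groups alone in the fit. Sign changes for D4_DUX against D4 were those of Cdkn2c when rescaled to TPM (0.0017), without D4_DUX replicate 1 (0.058) and without D4 replicate 3 (0.021), with a range of -0.051 to 0.058 over the libraries left out, of Cdkn1a with median-ratio scaling (-0.0087) and of Ccnd3 with quantile normalization (-0.016). For iPSC against MEF they were those of Ccne2 and Cdkn2b with median-ratio scaling (-0.16 and -0.15) and quantile normalization (-0.25 and -0.16), of Cdkn2b without iPSC replicate 1 (-0.031, range to 0.16) and of Ccne2 without iPSC replicate 3 (-0.011, range to 0.12); beyond scaling itself, the cause was not tested. The replicate block gave the same counts as the fit without it, 4 higher and 2 lower for D4_DUX against D4 and 7 and 3 for D4 against MEF, and changed no call. Same-numbered libraries of the compared groups correlated at -0.146 to 0.0624 in their deviations from the group means, and 2 of 12 correlated best with their own number, so the numbers were not taken to pair the samples. The fewest fragments of a member were 38, for Cdkn2c in iPSC, where its SD was 25.1% of the mean.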
